A study of Mus musculus with 24 samples.

Results

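Melanoma cells can shift between a differentiated, pigmented state and less differentiated or invasive states, and the 10 genes described here are the regulators and receptors by which those states are usually read. Their values are given in 7 mouse cell lines measured on 24 single-colour expression arrays. The genes are Sox10, Sox9, Snai2, Zeb1, Zeb2, Twist1 and Tcf4, which encode transcription factors, Axl and Ngfr, which encode cell surface receptors, and Wnt5a, which encodes a secreted ligand. They were chosen by name, with earlier results of these data known, out of 22881 genes whose probes carried a RefSeq transcript with a symbol. In all, 20 probes read them: 5 for Tcf4, 3 for Zeb2, 2 each for Sox9, Axl, Zeb1 and Wnt5a, and 1 each for Sox10, Ngfr, Snai2 and Twist1. Values are those of a gene's brightest probe unless another is named, and other probes are described for some genes and comparisons only.

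B16F1 is a mouse melanoma line, and all 5 melanoma lines were B16F1 cells that carry GFP, green fluorescent protein. M (full name B16F1-GFP-M, 3 arrays) is the parental line. D (B16F1-GFP-D, 4 arrays) was recovered after long dormancy in mice of the same strain that had received immunotherapy, and DB#1 (4 arrays), DB#2 (3) and DB#3 (3), in full B16F1-GFP-DB#1 to B16F1-GFP-DB#3, came from a later generation that was grown from a brain site. The melanoma lines were all grown in culture before RNA was taken, so none of the values is from tissue. M0 (4 arrays) and J365 (3) are called myeloid cells, with no genotype, treatment or agent given beside their names. Each recovered line is a single line, its arrays are not said to come from separate cultures, and p-values then measure only the spread between these samples, which may be technical.

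In melanocytes and in pigmented melanoma, Sox10 drives the gene for Mitf, the main regulator of melanin synthesis, and Sox10 and Sox9 tend to replace each other when cells lose that state. Snai2 and Zeb2 are found in normal melanocytes as well as in melanoma, whereas Zeb1 and Twist1 are known for their rise when melanoma cells become mesenchymal. Axl, a receptor tyrosine kinase, and Ngfr, the low-affinity nerve growth factor receptor, mark undifferentiated and neural crest-like cells that tolerate treatment, and Wnt5a drives movement through receptors of the Ror and Frizzled families. Tcf4 is an E protein, a partner of Twist1 and other helix-loop-helix factors, and is a different gene from Tcf7l2, the Wnt effector that shares its alias.

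A level is the log2 intensity of a gene's brightest probe less the 75th percentile of its array, so a level of 0 equals that percentile, and a difference of 1 between lines is a 2-fold difference. Levels depend on the probe and are not compared between genes. A value is called readable where the scanner software marked the spot as well above background. Both labelled cell types had their markers: all 7 melanocyte markers (Tyr, Tyrp1, Dct, Pmel, Mlana, Sox10 and Mitf) were readable on all 17 melanoma arrays and 3 to 4 of them on the myeloid arrays, and all 10 blood markers were readable on all 7 myeloid arrays. One array stood apart, D replicate 3, with 89.9% of probes readable and a 75th percentile of 574, against 43.6% to 53.8% and 271 to 484 on the other 23 arrays. On it 8 of 10 blood markers, 9 of 10 fibroblast markers, 5 of 5 neuron markers, 6 of 7 glial markers and 3 of 6 endothelial markers were readable. On the other 16 melanoma arrays 1 to 3, 4 to 6, 2, 3 to 4 and 0 to 1 of the same lists were readable. Arrays of different lines on one slide were also more alike (mean r = 0.989, 42 pairs within a cell type) than arrays of one line on different slides (mean r = 0.981, 27 pairs). All 3 slides held every line, and a model with slide as a block is given where it changed a call of the 10 genes.

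Ngfr is shown with the sequence in front of its start because it carried the only calls against the parental line. The 250 bases before its first base in the RefSeq annotation of assembly GRCm38.p6 (chr11:95587699-95587948, minus strand) are printed 5′ to 3′, and the capitals mark CAGCTG, a palindromic E-box of the kind that helix-loop-helix and zinc-finger factors such as Tcf4, Twist1 and Snai2 can bind.
Ngfr: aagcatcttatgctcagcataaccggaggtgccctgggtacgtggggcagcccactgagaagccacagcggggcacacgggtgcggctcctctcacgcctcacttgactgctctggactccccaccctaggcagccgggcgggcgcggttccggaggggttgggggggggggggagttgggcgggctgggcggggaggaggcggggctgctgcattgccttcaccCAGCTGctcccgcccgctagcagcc
That window is 70.4% G and C, against a median of 52.4% over all promoters of the same length. CAGCTG lay in 13.0% of the 32851 promoters. CAGGTG or its reverse complement CACCTG, the E-box preferred by Snail and Zeb factors, lay in 17.2% and is not among these letters. Promoters were at hand for 4 of the 10 genes. The windows searched for motifs in these 4 genes were longer than the printed one. That of Ngfr was chr11:95587649-95587948 and ran past its first base. In the windows of Axl, Twist1 and Zeb2 neither E-box was found on either strand. Of the cores that Sox factors bind, ACAAAG, which lay in 16.5% of promoters, was found once, at 1 of 4 starts of Zeb2, and ACAATG was not found. These matches describe the letters alone, and no binding was measured.

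Of the 10 genes, 6 were readable on all 17 melanoma arrays: Sox10, Sox9, Axl, Zeb2, Snai2 and Tcf4. Ngfr was readable on 11 of them and Wnt5a on 13. Zeb1 and Twist1 were readable on 1 each, which was D replicate 3 for both. On the other 16 melanoma arrays Sox10, Zeb2 and Snai2 were thus read together, without a readable Zeb1 or Twist1.

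**Figure D1:**
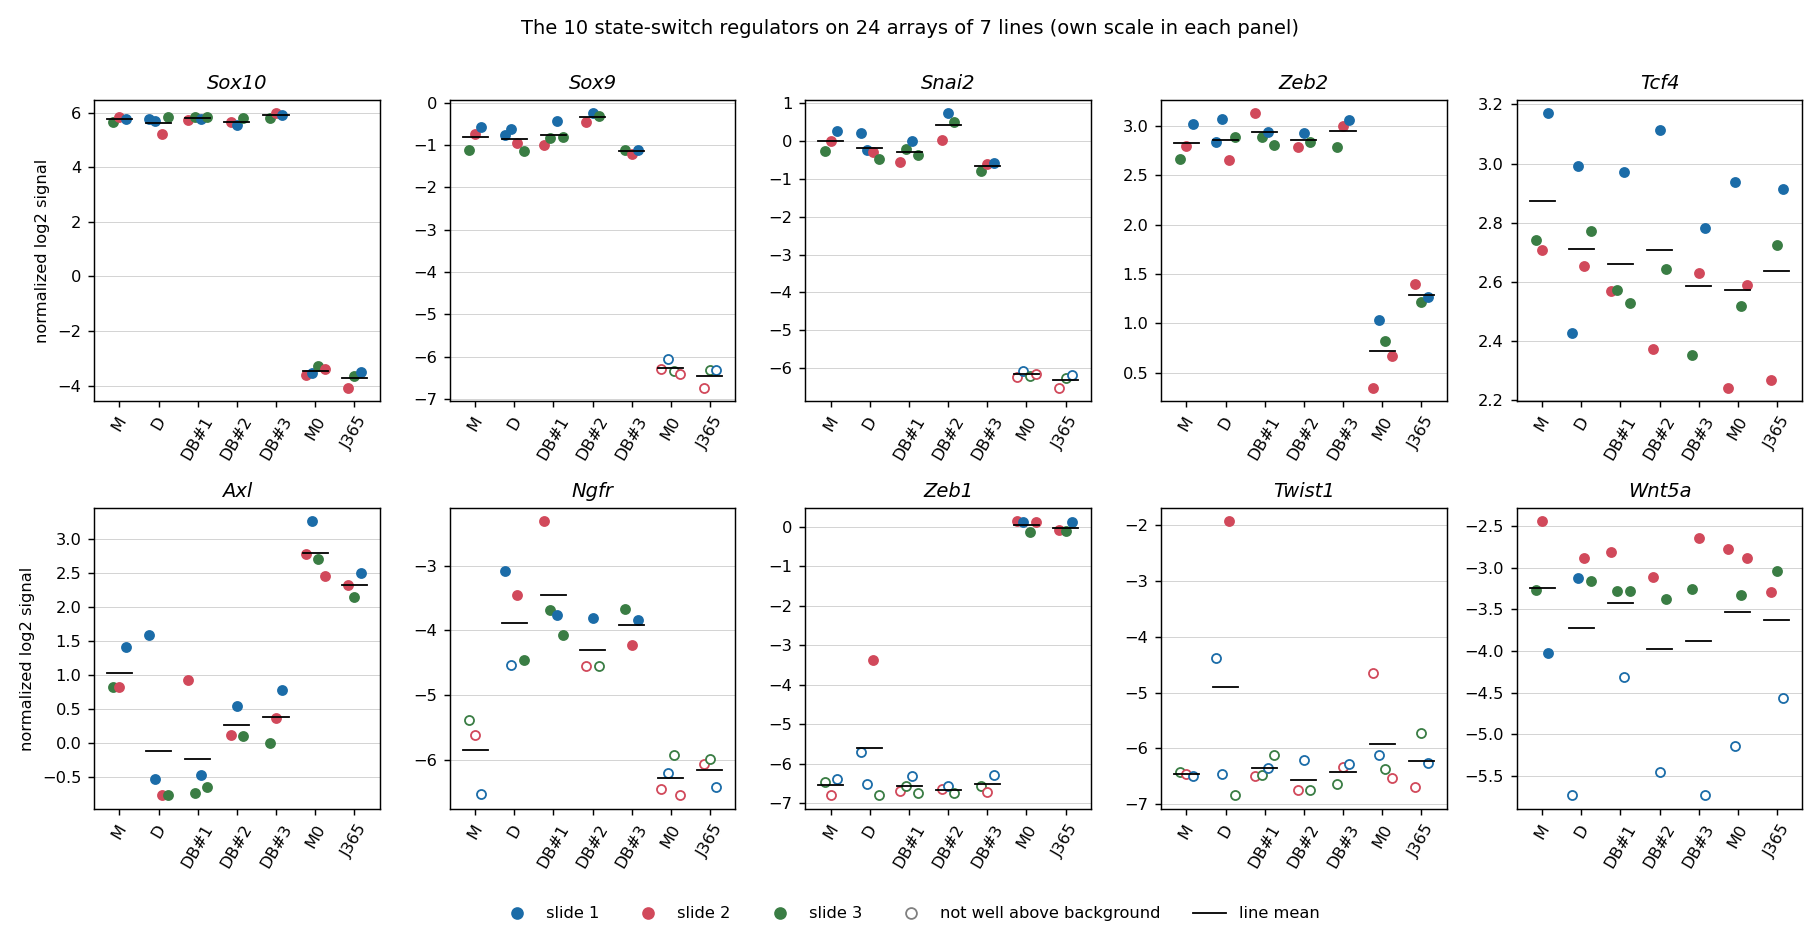
Levels of the 10 genes on each of the 24 arrays, as log2 intensity less the array's 75th percentile, with one panel per gene, lines on the horizontal axis and one point per array. Sox10 stays between 5.24 and 5.98 on the melanoma arrays and Zeb2 between 2.65 and 3.12.

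Sox10, the lineage factor of melanocytes and Schwann cells, hardly varied among the melanoma lines. Its level was 5.77 ± 0.09 (SD, n = 3) in M, 5.64 ± 0.27 (n = 4) in D, 5.80 ± 0.05 (n = 4) in DB#1, 5.68 ± 0.13 (n = 3) in DB#2 and 5.91 ± 0.08 (n = 3) in DB#3. The lowest array was D replicate 3, at 5.24, and the other 16 melanoma arrays lay between 5.56 and 5.98. In M0 and J365 the level was -3.46 ± 0.15 (n = 4) and -3.74 ± 0.30 (n = 3), so melanoma and myeloid arrays were far apart.

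Zeb2, a zinc-finger repressor of E-cadherin that melanocytes and several blood lineages also use, was as even in melanoma, with 2.65 to 3.12 over the 17 arrays and line means from 2.83 ± 0.18 (SD, n = 3) in M to 2.95 ± 0.15 (n = 3) in DB#3. Tcf4 ran from 2.35 to 3.17 in melanoma and from 2.24 to 2.94 in the myeloid lines. In every line the array with the highest Tcf4 level was on the same slide, slide 1, and in D that slide also held the lowest array (2.43). The 2 cell types overlapped for Tcf4 and did not for Zeb2.

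Wnt5a was at the edge of detection. The 4 melanoma arrays on which it was not readable (D replicate 1, DB#1 replicate 3, DB#2 replicate 2 and DB#3 replicate 5) and both such myeloid arrays (M0 replicate 1 and J365 replicate 3) were on slide 1. Its readable levels in melanoma ran from -4.03 to -2.44, and the line means with their SD were -3.24 ± 0.79 in M, -3.72 ± 1.35 in D, -3.42 ± 0.64 in DB#1, -3.98 ± 1.28 in DB#2 and -3.88 ± 1.64 in DB#3. In each of these lines the distance from the lowest to the highest array was larger than the distance between the line means. The second Wnt5a probe was readable on 1 array, D replicate 3, at -2.71.

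In D against M the question is which regulators differed in the line that came out of dormancy, and none of the 7 genes that could be tested was called. Limma called 2.96% of all genes in that comparison at an adjusted p under 0.05, and 1 of the 7 genes, Axl, had an unadjusted p under 0.05. Sox10 differed by -0.13 ± 0.15 (SE, adjusted p = 0.892), Sox9 by -0.06 ± 0.16 (adjusted p = 0.966), Snai2 by -0.19 ± 0.18 (adjusted p = 0.837) and Zeb2 by 0.03 ± 0.15 (adjusted p = 0.98). The median difference of the 7 genes was -0.16 on the log2 scale, beside -0.01 over all genes tested.

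Among the 7 genes tested Axl had the largest difference between D and M, and 1 array decided whether it was called. Its level was 0.82, 0.82 and 1.41 on the M arrays and 1.59, -0.54, -0.78 and -0.77 on D replicates 1 to 4. D replicate 1 was thus above every M array, and the other D arrays were below every M array. The difference was -1.14 ± 0.46 (SE, limma adjusted p = 0.268). Without D replicate 1, the array with the fewest readable probes (43.6%), it was -1.71 ± 0.33 (adjusted p = 0.00372), with a level of -0.70 ± 0.14 (SD, n = 3) in D. Leaving out D replicate 3 gave -0.93 (adjusted p = 0.389), and leaving out both gave -1.67 (adjusted p = 0.0181). A slide term in the model gave -1.23 (adjusted p = 0.0991), and the slides taken singly gave -0.89, -1.60 and -1.59.

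The same shape appeared in DB#1, where Axl was 0.92 on replicate 1 and -0.75, -0.48 and -0.66 on the other 3 arrays. The difference from M was -1.26 ± 0.46 (SE, limma adjusted p = 0.176) and became -1.65 ± 0.43 (adjusted p = 0.0432) without DB#1 replicate 1. Within slide 2, which held that replicate, DB#1 and M differed by 0.09, and within the other slides by -1.89 and -1.52. DB#2 and DB#3 had no such array: Axl was 0.12, 0.55 and 0.10 in DB#2 and -0.01, 0.36 and 0.77 in DB#3, below all M arrays in both lines. Their differences from M, -0.76 ± 0.49 (limma adjusted p = 0.655) and -0.64 ± 0.49 (adjusted p = 0.859), were not called. The second Axl probe was readable on 4 of the 17 melanoma arrays and could not settle the order.

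Ngfr was not readable on any M array (-5.39, -5.62 and -6.53), and it was higher in DB#1 and DB#3. It was readable on all 4 DB#1 arrays (-2.31, -3.68, -3.77 and -4.07) and on all 3 DB#3 arrays (-3.67, -4.22 and -3.84). DB#1 and M differed by 2.39 ± 0.39 (SE, limma adjusted p = 0.000496) and DB#3 and M by 1.94 ± 0.42 (adjusted p = 0.00924). Since M has only a bound, Ngfr was at least 1.78-fold higher in DB#1 and at least 1.30-fold higher in DB#3, measured against the lowest readable signal of each M array or the probe's own signal where that was higher. Ngfr was the only gene of the set called against M: 1 of 8 tested in DB#1, where 3.69% of all genes were called, and 1 of 8 in DB#3, where 2.76% were. It passed the filter on dim probes through those lines alone, so the count is a description, and with the filter applied to both lines it was not tested.

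In the other recovered lines Ngfr was read in part. It was readable on 3 of 4 D arrays (-3.09, -3.45 and -4.45, and not at -4.53) and on 1 of 3 DB#2 arrays (-3.80, with -4.55 on each of the others). All of these values were above all 3 M values, but neither line had Ngfr readable on every array, so D and DB#2 were not tested against M for it. In D the values -3.09 and -3.45 were those of D replicates 1 and 3. Without both, the D mean was -4.49 and 1 of 2 arrays was readable. The lowest readable signals on D replicates 2 and 4 were -4.24 and -4.58, so Ngfr there was at the edge of detection. The call in DB#1 held without each array in turn (2.00 to 2.61). The call in DB#3 was lost without M replicate 3 (1.59, adjusted p = 0.0916) or DB#3 replicate 3 (1.81, adjusted p = 0.0589). Both were lost with another background correction, normexp, which gave 0.53 (adjusted p = 0.149) and 0.37 (adjusted p = 0.641). Glia also express Ngfr, and 4 of 7 glial markers were readable on all arrays of M, DB#1 and DB#3. Their summed level, on a linear scale relative to the 75th percentile, was 7.10 to 9.56 in DB#1, 1.99 to 2.81 in M and 1.14 to 1.47 in DB#3. Of the readable markers only the myelin gene Mbp was higher in DB#1 (2.67 to 3.18, against 0.08 to 1.15 in M). Gfap was lower in DB#1 (-4.18 to -3.38, against -3.13 to -2.99 in M), and Aqp4 and Mog overlapped M. Slc1a3, Olig1 and Olig2 were not readable on any array of these 3 lines. The part of these markers in the Ngfr calls was not tested.

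**Figure D2:**
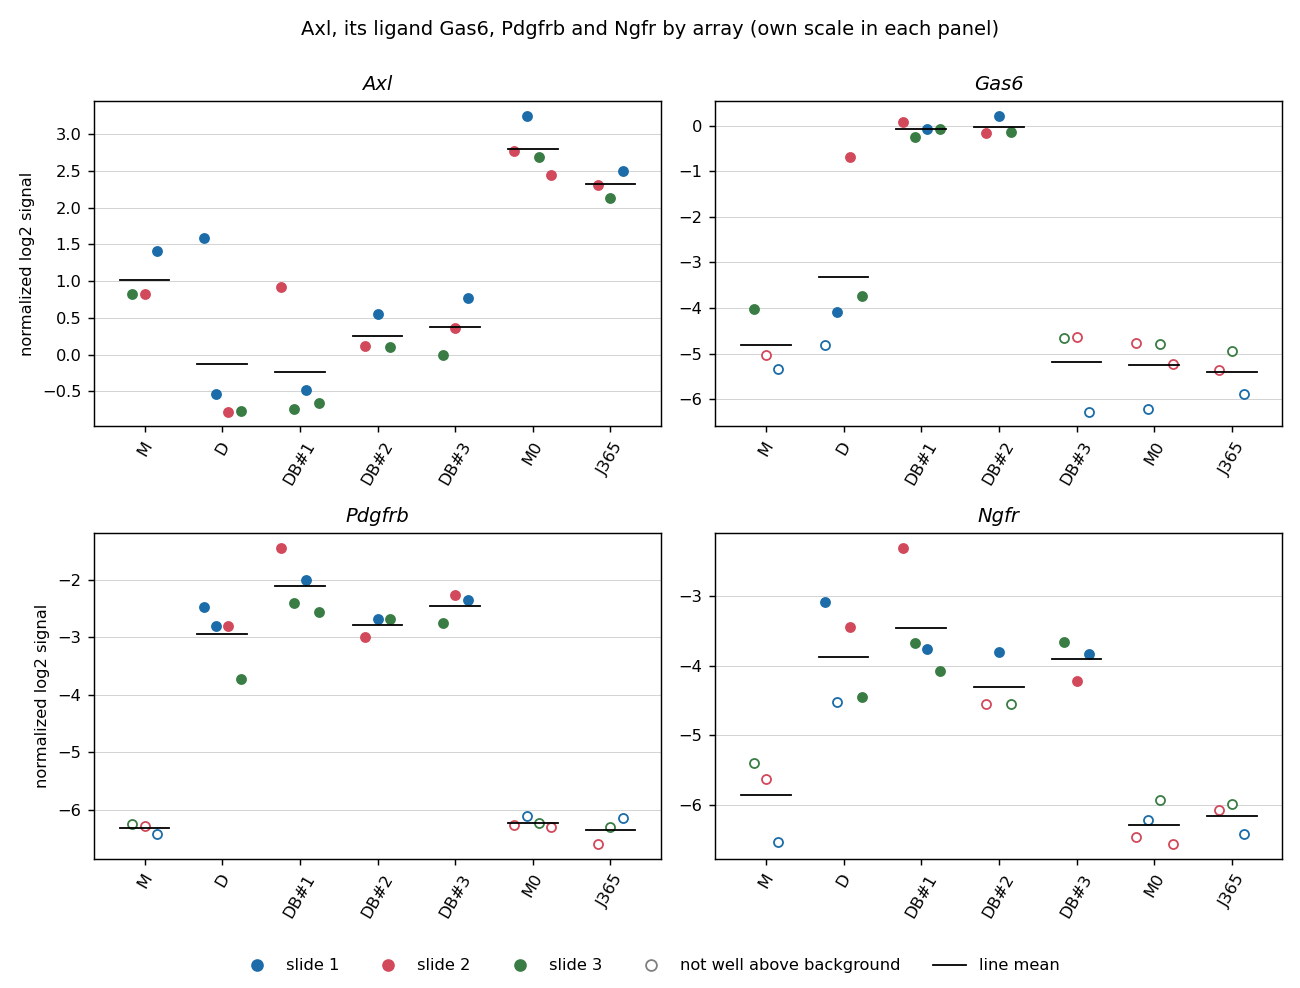
Levels of Axl, Gas6, Pdgfrb and Ngfr on each array of the 7 lines (log2 intensity less the array's 75th percentile), by line, with open points where the probe was not well above background. D replicate 1 at 1.59 and DB#1 replicate 1 at 0.92 stand above the rest of their lines for Axl, and all 3 M arrays are open points for Ngfr.

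Snai2, the Slug repressor that keeps melanocyte precursors alive, and Sox9, the SoxE factor of chondrocytes and neural crest, were called in DB#2 against the mean of the other brain-site lines. Snai2 was 0.03, 0.73 and 0.50 in DB#2, -0.54, -0.22, 0.00 and -0.36 in DB#1, and -0.78, -0.62 and -0.57 in DB#3. All DB#2 arrays were above all DB#1 and DB#3 arrays, by a small gap at the nearest pair. Against the mean of DB#1 and DB#3, Snai2 was 1.85-fold higher in DB#2, a difference of 0.89 ± 0.17 (SE, limma adjusted p = 0.00155), and it stayed called without each array in turn (0.74 to 1.09).

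Sox9 was -0.45, -0.25 and -0.32 in DB#2, -0.99, -0.83, -0.43 and -0.82 in DB#1, and -1.11, -1.21 and -1.12 in DB#3. DB#3 was below all DB#2 arrays, while DB#1 replicate 3 fell within the DB#2 range. In DB#2 Sox9 was 1.53-fold higher than the mean of the other brain-site lines, a difference of 0.62 ± 0.15 (SE, limma adjusted p = 0.0133). That call was lost without DB#2 replicate 2 (adjusted p = 0.0875) or DB#2 replicate 3 (adjusted p = 0.0674), and the second Sox9 probe differed by 0.24 ± 0.25 (adjusted p = 0.786). Fibroblasts express Snai2 too, and 6 of 10 fibroblast markers were readable on each DB#2 array, 4 to 6 on DB#1 and 4 to 5 on DB#3 arrays, with summed levels of 9.10 to 10.3, 9.06 to 10.3 and 9.52 to 13.5. Of these Dcn was readable in DB#2 (-2.39 to -0.19) and in neither other brain-site line, Col1a2 was 0.36 to 0.59 in DB#2 and at most -0.04 in the others, and Col3a1, Pdgfra, Lum and Thy1 were not readable in DB#2. Neuron markers had 2 of 5 readable in all 3 lines, with summed levels of 17 to 23.8 in DB#2, 11.9 to 14 in DB#1 and 12.8 to 13.8 in DB#3. The part of these markers in the calls was not tested.

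Within the 3 slides the difference was 0.52, 0.65 and 0.65 for Sox9 and 1.02, 0.61 and 1.04 for Snai2. Snai2 and Sox9 were 2 of 7 genes called, in a comparison where 7.14% of all genes were called, and the median difference of the 7 was 0.08 beside -0.02 over all genes. By single pairs, Snai2 was higher in DB#2 than in DB#1 (0.70 ± 0.18, limma adjusted p = 0.0274, with 5.47% of all genes called), while Sox9 was not called there (0.42 ± 0.17, adjusted p = 0.170). With slide as a block, Sox9 differed between DB#2 and DB#1 by 0.41 ± 0.12 (adjusted p = 0.0458). In DB#3 against DB#2, with 4.44% called, both Snai2 (-1.08 ± 0.20, adjusted p = 0.00153) and Sox9 (-0.81 ± 0.18, adjusted p = 0.00796) were lower. Neither gene was called in DB#2 against M, where Sox9 differed by 0.47 ± 0.18 (adjusted p = 0.216; 0.0444 with the slide block, which called it) and Snai2 by 0.42 ± 0.20 (adjusted p = 0.392): 0 of 7 genes were called there, 2 had an unadjusted p under 0.05, and 3.44% of all genes were called. In DB#3 Snai2 was below all M arrays by level, and its difference from M was -0.66 ± 0.20 (adjusted p = 0.0944). The slide block called it (adjusted p = 0.0136), and within the slides the difference was -0.83, -0.61 and -0.53.

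**Figure D3:**
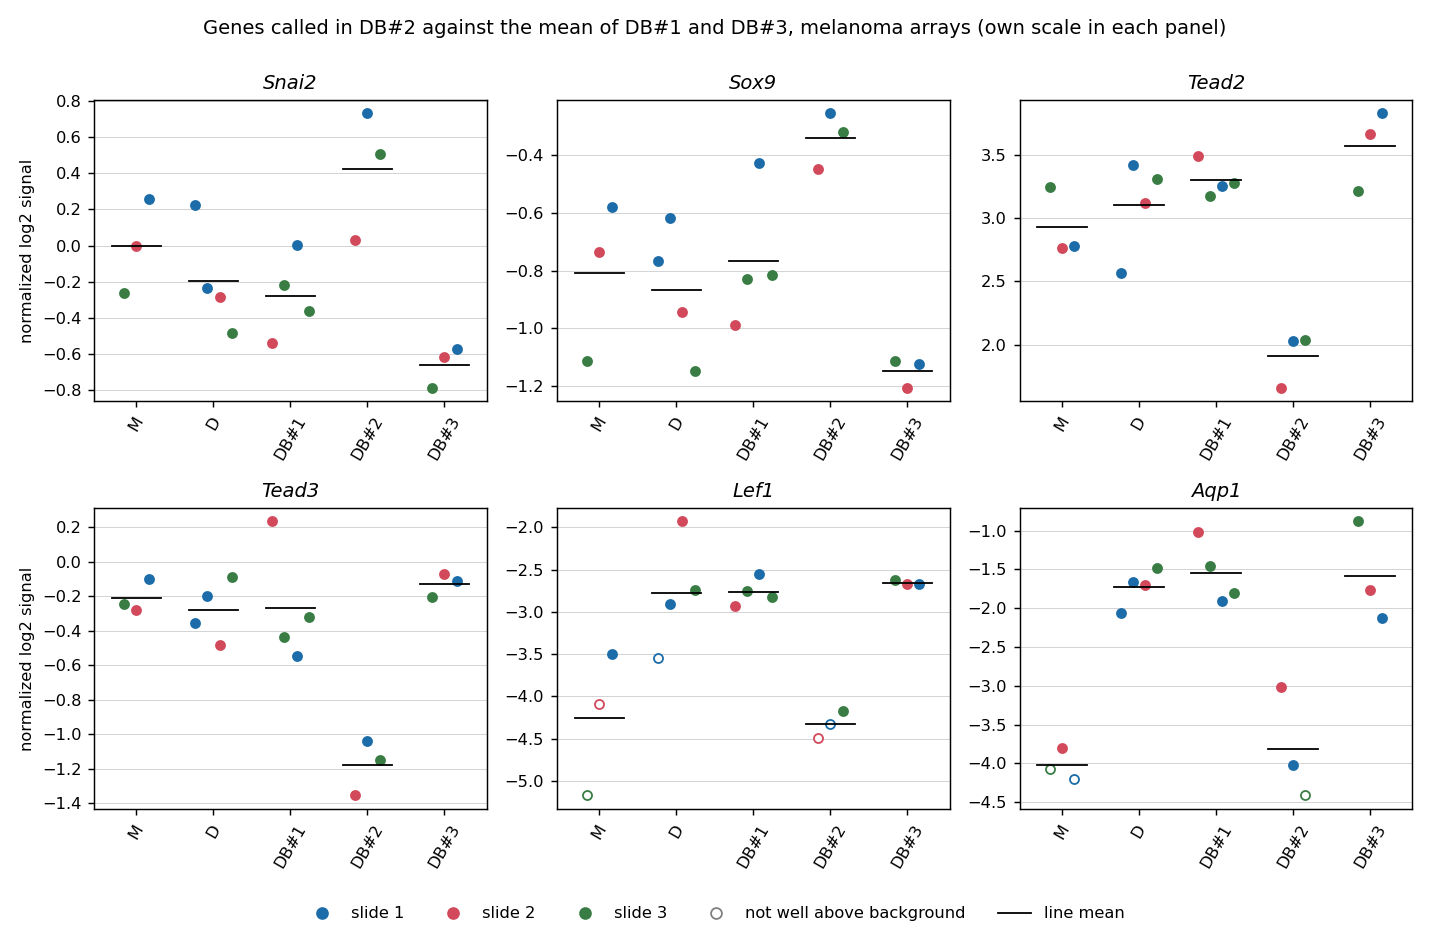
Levels on each melanoma array (log2 intensity less the array's 75th percentile) of genes called in DB#2 against the mean of DB#1 and DB#3, by line. Snai2 and Sox9 are highest in DB#2, with Snai2 at 0.03 to 0.73 there.

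In the model without slides, none of the genes was called when the DB lines were compared with D. Of 7 tested in DB#1 against D, 0 were called and 0 had an unadjusted p under 0.05, with 0.475% of all genes called by limma. Of 7 in DB#3 against D, 0 were called and 1, Snai2, had an unadjusted p under 0.05, with 0.369% of all genes called. DB#2 against D came closest: of 6 tested 0 were called and 2 had an unadjusted p under 0.05, Snai2 (0.62 ± 0.18, adjusted p = 0.0507) and Sox9 (0.53 ± 0.16, adjusted p = 0.062), with 6.34% of all genes called. With slide as a block both were called, Snai2 at 0.66 (adjusted p = 0.00415) and Sox9 at 0.57 (adjusted p = 0.00492), and within slides 1, 2 and 3 they differed by 0.74, 0.31 and 0.99 and by 0.44, 0.50 and 0.83. In the model without slides Snai2 was called without D replicate 1 (adjusted p = 0.00998), without DB#2 replicate 1 (adjusted p = 0.0181) or without both D replicates 1 and 3 (adjusted p = 0.0231). Sox9 was called without D replicate 2 (adjusted p = 0.0464). In DB#1 against DB#3 0 of 7 were called, 1 (Sox9) had an unadjusted p under 0.05, and 0.229% of all genes were called.

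**Figure D4:**
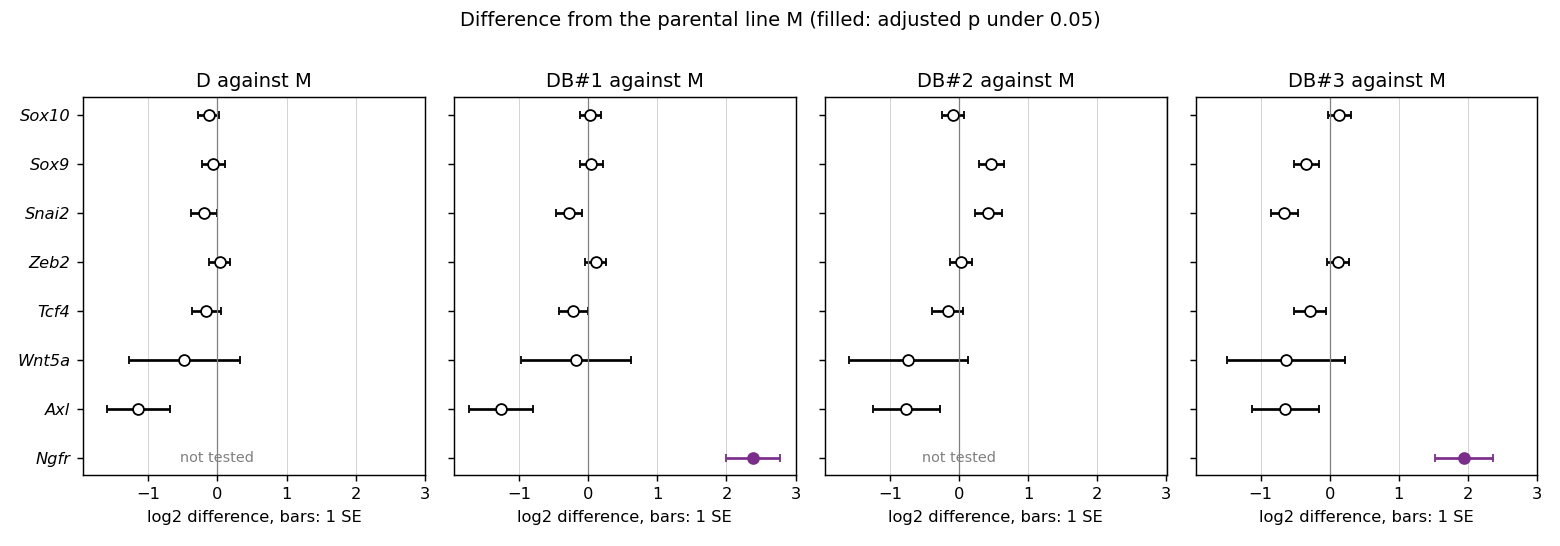
Difference of D, DB#1, DB#2 and DB#3 from M on the log2 scale for each gene that could be tested, with bars of 1 SE from limma. Filled points are called at an adjusted p under 0.05, and these are Ngfr in DB#1 (2.39) and in DB#3 (1.94).

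Over the 7 lines, each gene's mean levels give 6 pairs of neighbours, 60 in all, of which 40 could be tested and 6 differed at limma's adjusted p under 0.05. None of these 6 was a pair of melanoma lines. Neighbours are the smallest steps in each order, so lines further apart could still differ. Snai2 and Sox9 in DB#3 against DB#2 and Ngfr in DB#1 and DB#3 against M were such called pairs. Quantile normalization gave 7, with Zeb2 in J365 above M0 added, and slide as a block gave 8, with that pair and a melanoma pair, Sox9 in DB#2 above DB#1. For 5 genes the step that differed was between melanoma and myeloid lines that were far apart: Sox10 (D above M0, adjusted p = 9.27e-22), Sox9 (DB#3 above M0, 1.77e-16), Snai2 (DB#3 above M0, 3.47e-16), Zeb2 (M above J365, 6.16e-08) and Zeb1 (J365 above D, 3.04e-09). For Axl, J365 was above M by 1.30 ± 0.49 (adjusted p = 0.0307). The shares of all genes called in the pairs concerned were 61.3% for M0 against D, 60.2% for M0 against DB#3, 54.4% for J365 against M and 54.8% for J365 against D.

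M against M0 compares 1 melanoma line with 1 myeloid line. Of 8 genes tested, 6 were called, 4 higher in M and 2 higher in M0, in a comparison where 58.5% of all genes were called, so the count itself says little of these genes. The median difference was 1.21 on the log2 scale beside -0.13 over all genes. Sox10 differed by 9.23 ± 0.15 (SE, limma adjusted p = 3.5e-21) and Zeb2 by 2.11 ± 0.15 (adjusted p = 1.28e-10), which is 4.31-fold. Snai2 (adjusted p = 5.09e-17) and the brightest probe of Sox9 (adjusted p = 6.11e-17) were not readable on any myeloid array. They were at least 17-fold and at least 9.72-fold higher in M. The second Sox9 probe was readable on 2 of 4 M0 arrays and on all 3 J365 arrays. By that probe M was above M0 by 1.03 ± 0.28 (adjusted p = 0.00367), so the bound for Sox9 holds for its brightest probe alone.

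Zeb1 and Axl ran the other way. Zeb1 was 0.13, -0.14, 0.12 and 0.14 on the M0 arrays and -0.10, 0.13 and -0.07 on the J365 arrays, and it was at least 20.5-fold higher in M0 than in M (limma adjusted p = 1.97e-10). The second Zeb1 probe was likewise readable on all 4 M0 arrays and on no M array. Zeb1 and Zeb2, paralogous repressors that bind the same E-boxes, were therefore each higher in a different cell type. Axl was 3.26, 2.70, 2.45 and 2.78 in M0 and 2.14, 2.50 and 2.32 in J365, above all 17 melanoma arrays. M was lower than M0 by 1.78 ± 0.46 (SE, adjusted p = 0.00236), while the dimmer second probe was readable on all 4 M0 arrays and on no M array. Tcf4 differed by 0.30 ± 0.21 (adjusted p = 0.236) and Wnt5a by 0.28 ± 0.81 (adjusted p = 0.789). Another Tcf4 probe, readable on all M and M0 arrays, differed by -0.02 ± 0.18 (adjusted p = 0.930).

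Between the myeloid lines 0 of the 5 genes tested were called, 1 (Zeb2) had an unadjusted p under 0.05, and 1.47% of all genes were called by limma. Zeb2 was 1.03, 0.82, 0.67 and 0.35 in M0 and 1.21, 1.26 and 1.40 in J365, with no overlap. The difference was 0.57 ± 0.15 (SE, adjusted p = 0.0676), and the other 2 Zeb2 probes gave 0.29 and 0.18, neither of them called. The brightest probe was called without M0 replicate 1 (adjusted p = 0.0214) and with slide as a block (0.56, adjusted p = 0.0294), and within the slides it differed by 0.23, 0.89 and 0.39. In cultured lines as in tissue, fewer cells of a kind and less RNA per cell cannot be told apart on arrays.

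The wider program was read from 8 lists of genes around the 10, each count out of the genes tested and with its median beside that over all genes. The lists too were chosen with earlier results of these data known, so their counts are descriptions. In the melanoma lines most of these genes did not pass the test, and a list with 0 calls by limma in a comparison had 0 to 3 genes at an unadjusted p under 0.05. Of the differentiated melanocyte list, 0 of 12 were called in D against M (median -0.09) and 0 of 13 in DB#2 against M (0.05). In DB#1 against M 2 of 14 were higher (0.09), Lef1 (1.49, limma adjusted p = 0.039), a Wnt effector, and Kit (0.93, adjusted p = 0.0127), the stem cell factor receptor. In DB#3 against M 1 of 14 was higher (0.10), again Lef1 (1.60, adjusted p = 0.0472). The medians over all genes in these comparisons were -0.01, 0.02, 0.04 and 0.03. The shares of all genes called were 2.96% in D, 3.44% in DB#2, 3.69% in DB#1 and 2.76% in DB#3. Every list count against M stands beside these shares. Lef1 was tested against M only because it was readable throughout DB#1 and DB#3, where it was high. The counts of the differentiated list in those lines thus lean upward and are no support for the list. In DB#1 the call of Lef1 held only without M replicate 3 among 7 leave-outs of 1 array (adjusted p from 0.0660 to 0.252 in the other 6), and in DB#3 likewise (0.107 to 0.293 in the other 5 of 6). Kit was lost without M replicate 1, M replicate 2 or DB#1 replicate 3 (adjusted p from 0.0523 to 0.0940).

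Genes of epithelial-mesenchymal change were not called against M in any of the 4 lines, with 10 tested in each and medians of 0.07 in D, 0.12 in DB#1, -0.10 in DB#2 and 0.06 in DB#3. Of the list of E protein partners, 0 of 8 were called in each (medians -0.08, 0.04, 0.02 and 0.09). Of the AP-1 and TEAD factors, which drive the undifferentiated state, 0 of 13 were called in D, DB#1 and DB#3 (medians 0.09, 0.15 and 0.08). In DB#2, where 3.44% of all genes were called, 2 of 13 were lower (median -0.19), Tead2 (-1.02, limma adjusted p = 0.0116) and Tead3 (-0.97, adjusted p = 0.00132). The call of Tead2 was lost without M replicate 1 or without DB#2 replicate 1 (adjusted p from 0.0844 to 0.0879).

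Of the SoxE and neural crest list, Aqp1, a water channel found in migrating neural crest, was the gene called: 1 of 7 was higher in D, in DB#1 and in DB#3, and 0 of 6 were called in DB#2 (medians -0.17, -0.09, -0.08 and -0.10). Aqp1 was -4.07, -3.80 and -4.20 in M and -2.06, -1.66, -1.69 and -1.48 in D, a difference of 2.30 (limma adjusted p = 4.83e-05). It was -1.02, -1.45, -1.90 and -1.80 in DB#1 (2.48 from M, adjusted p = 1.06e-05) and -0.88, -1.76 and -2.12 in DB#3 (2.43, adjusted p = 3.8e-05). DB#2, at -3.02, -4.02 and -4.42, overlapped M and was readable on 2 of 3 arrays, so Aqp1 was not tested in DB#2 against M. M was readable on 1 of 3 arrays for this gene, so part of its values there are close to background. Aqp1 was thus tested only because it was readable throughout D, DB#1 and DB#3. These counts, beside 2.96%, 3.69% and 2.76% of all genes called, lean upward and are no support for the list.

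The list around Axl had the most calls against M of the 8 lists in each DB line. It holds Axl's sister receptors Tyro3 and Mertk, the shared ligands Gas6 and Pros1, and Egfr, Pdgfrb and Met, receptor kinases known to be high beside Axl in undifferentiated melanoma. Against M, 1 of 4 was called in D, 3 of 5 in DB#1, 3 of 5 in DB#2 and 2 of 4 in DB#3, all higher, beside 2.96%, 3.69%, 3.44% and 2.76% of all genes. Pdgfrb, and Gas6 in DB#1 and DB#2, were tested only because they were readable in the recovered line, so these counts lean upward and are no support for the list. Pdgfrb, the platelet-derived growth factor receptor beta, was readable on no M array and on all arrays of the recovered lines. Its levels were -2.47, -2.81, -2.80 and -3.72 in D, from -2.57 to -1.44 in DB#1, -2.99, -2.69 and -2.68 in DB#2, and -2.75, -2.26 and -2.36 in DB#3. It was at least 2.53-fold higher in D than in M, at least 4.56-fold in DB#1, at least 2.84-fold in DB#2 and at least 3.56-fold in DB#3. Limma's adjusted p was 2.52e-08 in D, 4.29e-10 in DB#1, 2.93e-08 in DB#2 and 5.19e-09 in DB#3, and each call held without any 1 array.

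Gas6, the ligand that activates Axl and its sister receptors, parted the brain-site lines. The 4 DB#1 arrays had 0.08, -0.24, -0.07 and -0.08, the 3 DB#2 arrays had -0.15, 0.22 and -0.15, and it was not readable on any DB#3 array (-4.65, -4.64 and -6.27). It was at least 18.5-fold higher in DB#1 than in DB#3 and at least 19.2-fold higher in DB#2 than in DB#3. In M it was readable on 1 array, at -4.02. The differences from M were 4.72 ± 0.66 (SE, limma adjusted p = 7.56e-05) in DB#1 and 4.77 ± 0.71 (adjusted p = 0.000175) in DB#2, called without any 1 array too. In D it was -4.81, -4.08 and -3.73 on replicates 1, 2 and 4 and -0.68 on replicate 3, the array with markers of many other cell types, whose part in that value was not tested. The lines with Gas6 at a high level, DB#1 and DB#2, did not differ from DB#3 in Axl by a called difference. Tyro3 was higher than in M in DB#1 (1.04, adjusted p = 0.000113), DB#2 (0.60, adjusted p = 0.0416) and DB#3 (1.02, adjusted p = 0.000396), and its call in DB#2 was lost without M replicate 2 or 3 or DB#2 replicate 2 or 3 (adjusted p from 0.109 to 0.243).

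Around Ngfr, 1 of 6 genes tested was called in D against M (median 0.06), beside 2.96% of all genes. It was Sort1, the sortilin coreceptor that binds Ngfr, which was lower (-0.52, limma adjusted p = 0.0152). That call was lost without M replicate 1 or M replicate 3 (adjusted p from 0.0551 to 0.0958). In the DB lines 0 of 6 were called against M, with medians of 0.19 in DB#1, 0.16 in DB#2 and 0.27 in DB#3. Of the Wnt5a list 1 of 9 was called in D, Prkca, a protein kinase C of the calcium branch of Wnt signalling, which was lower (-0.73, adjusted p = 0.0183), a call lost without M replicate 2 or M replicate 3 (adjusted p from 0.0675 to 0.131). In DB#1, DB#2 and DB#3 0 of 9 of that list were called (medians 0.12, -0.14 and 0.11).

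DB#2 against the mean of DB#1 and DB#3, where 7.14% of all genes were called, gave calls in 5 of the 8 lists, beside Snai2 and Sox9. Of the differentiated list 2 of 14 were lower, Lef1 (-1.62, limma adjusted p = 0.00705) and Kit (-0.90, adjusted p = 0.0056), and 1 was higher, Gpr143 (0.76, adjusted p = 0.0203), a receptor of the melanosome. Of these, Lef1 passed the filter through DB#1 and DB#3 alone, where it was high. Aqp1 was lower (-2.25, adjusted p = 8.47e-06), 1 of 7 of its list, and passed the filter through DB#1 and DB#3 alone, where it was high. Thbs1, thrombospondin, was lower (-1.59, adjusted p = 0.00681), 1 of 10 of the epithelial-mesenchymal list. Tead2 (-1.53, adjusted p = 1.94e-05) and Tead3 (-0.98, adjusted p = 0.000143) were lower, 2 of 13, and Gas6 was higher (2.60, adjusted p = 0.00903), 1 of 5, with DB#1 at the level of DB#2. Without DB#2 replicate 3 the calls of Kit (adjusted p = 0.0886) and Thbs1 (adjusted p = 0.0520) were lost, without DB#2 replicate 2 those of Gas6 (adjusted p = 0.0612) and Gpr143, and without DB#2 replicate 1 that of Gpr143 (adjusted p from 0.0564 to 0.171 for Gpr143). The 6 genes tested around Ngfr, the 9 around Wnt5a and the 8 E protein partners had 0 calls. The medians of the lists other than the Axl list, which Gas6 entered through the lines where it was high, ran from -0.22 for AP-1 and TEAD factors to 0.05 for the E protein list, beside -0.02 over all genes. Between the myeloid lines, where 1.47% of all genes were called, the 8 lists had 1 call, 1 of 4 tested in the differentiated list. This was Mitf, which was higher in J365 (1.19, adjusted p = 0.0477), and that call was lost without M0 replicates 1, 2 or 3 or J365 replicates 3 or 4 (adjusted p from 0.0568 to 0.424).

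DB#2 also differed from D in these lists, in a comparison where 6.34% of all genes were called. Tead2 (-1.20, limma adjusted p = 0.00107) and Tead3 (-0.90, adjusted p = 0.00115) were lower, 2 of 13, and so were Aqp1 (-2.09, adjusted p = 8.33e-05), 1 of 7, and Kit (-0.90, adjusted p = 0.0122), 1 of 13. Gas6 (3.30, adjusted p = 0.00316) and Met (1.16, adjusted p = 0.00229), the receptor of hepatocyte growth factor, were higher, 2 of 5. Of 10 epithelial-mesenchymal genes Itga5 (0.89, adjusted p = 0.00830), a fibronectin receptor subunit, was higher and Thbs1 (-1.40, adjusted p = 0.0347) lower. Kit was lost without DB#2 replicate 3 (adjusted p = 0.127), Itga5 without DB#2 replicate 2 (adjusted p = 0.0720) and Thbs1 in 6 of 7 leave-outs of 1 array, all but D replicate 1 (adjusted p from 0.0609 to 0.148). DB#1 differed from D in Gas6 (3.25, adjusted p = 0.0108), a call lost without D replicate 1 or without D replicate 2 (adjusted p from 0.0508 to 0.0581). Beside it 0.475% of all genes were called. Gas6 was tested against D only through DB#1 and DB#2, and Aqp1 in DB#2 against D only through D, in each case where it was high. Within slide 2, which held D replicate 3, Gas6 differed from D by 0.77 in DB#1 and 0.53 in DB#2. Within slides 1 and 3 it differed by 4.38 and 3.57 in DB#1 and by 4.67 and 3.58 in DB#2. DB#3 against D had 0 calls in the 8 lists.

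Across cell types, in M against M0, the differentiated list was higher in M throughout (12 of 12 tested), beside 58.5% of all genes called in either direction. The epithelial-mesenchymal list had 9 of 11 higher and 2 lower, the AP-1 and TEAD list 9 of 14 higher and 5 lower, and the E protein list 6 of 8 higher and 1 lower. The SoxE list had 3 of 7 higher and 1 lower, the Wnt5a list 5 of 9 higher and 2 lower, the Axl list 1 of 3 higher and 2 lower, and the Ngfr list 2 of 6 higher and 3 lower.

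Patterns over the 17 melanoma arrays were compared, after each slide's mean was subtracted, with those of 11871 genes readable on all of them. These correlations describe arrays that share lines and slides. D replicate 3, which stood apart and had the lowest Sox10 level, was among the arrays, and no correlation was taken without it. Snai2 was most like Mir22hg (Pearson r = 0.956), Rtp4 (0.920) and Fam171b (0.920). Axl was most like Scaper (0.929), Map6 (0.927) and Aox1 (0.923). For Sox9 the nearest genes were Plxna4 (0.906), Enpp2 (0.890) and Gm11423 (0.875). The nearest to Sox10 were Myo10 (0.890), Ppp1r9b (0.888) and Vipas39 (0.883), to Zeb2 AI597479 (0.899), Itga6 (0.879) and Yme1l1 (0.863), and to Tcf4 Pask (0.906), Tesk2 (0.892) and Mysm1 (0.870).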

How the data were processed

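Total RNA of 7 cell lines was hybridised to 24 one-colour Agilent arrays (cyanine 3). The authors deposited a scanner table per array, made with Agilent Feature Extraction 10.7.3.1 per the submitters' processing notes, with an intensity per spot on a linear scale, corrected for background and not scaled between arrays. Their series table held the same intensities (1511424 of 1511424 values equal). The study's methods name GeneSpring and no test for the arrays.

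Control spots were left out, as were 117 of 56605 probes flagged as outliers on any array, 0 of them probes of the 10 genes. No spot was saturated (0). Signal was log2 intensity minus each array's 75th percentile. Accessions were matched to RefSeq symbols (GRCm38.p6), which named 32917 probes, and the brightest probe on average stood for a gene. The array design refers to mm9, and no gene coordinates were taken across builds. Promoters are from RefSeq (GRCm38.p6), and motifs were searched on both strands.

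Lines were compared with limma 3.58.1 in R 4.3.3 (lmFit, eBayes), in a single fit to all 24 arrays with 1 coefficient for each line and 17 residual degrees of freedom. A gene was tested where it was well above background on every array of at least 1 line compared. P-values were adjusted by Benjamini-Hochberg over all genes tested in a comparison, and calls were made at adjusted p-values under 0.05. The procedure was checked on simulated data, which held no slide effect and no array that stands apart, so the check does not cover these. A bound ("at least") sets the bright line's mean against, per dim array, the lowest signal well above background or, where higher, that of the probe itself. The number of arrays limits the precision.

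At most 4 called genes per list and comparison were named, those with the largest difference, and 3 genes alike in pattern per gene. The 10 genes and the lists were chosen with earlier results of these data known. Alternatives were quantile normalization, normexp (offset 50, on median signals), no scaling, no filter, a stricter filter, the mean over probes, the percentile over detected probes, a fit to the compared lines alone, an adjusted p under 0.01, slide or replicate number as a block, and leaving out each array. Leaving out D replicates 1 and 3 together, and all alternatives for listed genes, were added after seeing the data. Replicate numbers did not pair the samples, and arrays of M0 and J365 without a number were numbered 4.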

Additional observations from a re-analysis of the deposited data

Results flagged for a closer look

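In lines of 4 arrays, a value was singled out when the gap to the nearest other array was larger than chance gives in about 1 of 20 groups, and 5 of 30 groups of 4 had such a value. Axl was 1.59 on D replicate 1, against -0.54 to -0.78 on the other D arrays, and 0.92 on DB#1 replicate 1, against -0.48 to -0.75 on the other DB#1 arrays. Wnt5a was -5.74 on D replicate 1, where the probe was not well above background, against -3.16 to -2.88 on the others. Zeb1 was -0.14 on M0 replicate 2, against 0.12 to 0.14 on the other M0 arrays, a small gap within a narrow range. Tcf4 was 2.97 on DB#1 replicate 3, against 2.53 to 2.57 on the others. D replicate 1 and DB#1 replicate 3 were on slide 1 and DB#1 replicate 1 on slide 2, and the part of the slides in these values was not tested.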

How the results depend on the processing

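Of 206 counts of called genes under the alternatives, 169 stayed within 1.5 times the reported count. The exceptions follow, as numbers of the 10 genes called. Without a filter on dim probes D against M gave 1 (Ngfr), and with slide as a block DB#2 against M gave 1, DB#3 against M 2, DB#2 against D 2 and J365 against M0 1. Without scaling DB#2 against M gave 2, DB#2 against D 2 and J365 against M0 1, and quantile normalization gave 0 in DB#3 against M, 2 in DB#2 against D and 1 in J365 against M0. Normexp gave 0 in DB#1 against M, 0 in DB#3 against M, 1 in DB#2 against the mean of DB#1 and DB#3 and 1 in J365 against M0. The stricter filter, which tested fewer genes, gave 0 in DB#1 against M, 0 in DB#3 against M, 1 in DB#2 against D and 3 in M against M0. DB#2 against the mean of DB#1 and DB#3 gave 1 at an adjusted p under 0.01, without the filter, with the mean over probes and with the replicate block, and DB#2 against D gave 1 with the mean over probes. Without D replicates 1 and 3, D against M and DB#2 against D gave 1 each. Leaving out each array in turn gave 0 to 1 in D against M, 1 to 2 in DB#1 against M, 0 to 1 in DB#3 against M, 0 to 1 in DB#2 against D, 1 to 2 in DB#2 against the mean of DB#1 and DB#3, and 0 to 1 in J365 against M0. The cause of these changes was not tested. With the replicate block Sox9 in DB#2 against the mean of DB#1 and DB#3 was 0.56 (limma adjusted p = 0.0747); same-numbered arrays deviated together in 23 of 49 pairs (median r = 0.04). Of 1189 values of single genes, 1017 kept direction and call, 105 lost their call, 24 gained one, 42 moved without a test, and 1 reversed, Axl in DB#1 against M within slide 2 (0.0926). Normexp shrank the differences of genes dim in M, of which Ngfr lost its calls and Pdgfrb (0.77 in D, 1.20 in DB#1), Gas6 (2.50 in DB#1) and Aqp1 (0.95 in D) kept theirs. The median over all genes shifted by more than 0.1 without the filter (to -0.39 in DB#2 against D) and without scaling (-0.21 to 0.24). Values near background, those of Ngfr, Wnt5a, Zeb1 and Twist1 in melanoma, are limited by signal.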
